A study of Mus musculus with 6 samples.

Results

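The 9 genes described here are Tgfb1, Tgfb2, Tgfb3, Inhba, Ltbp1, Ltbp2, Tgfbr1, Tgfbr2 and Smad7. These genes encode ligands, receptors and an inhibitor of transforming growth factor beta (TGF-beta) signaling, and members of the latent TGF-beta binding protein family. They were selected by name, and each matched 1 of the 54093 genes in the expression table. No measured value entered the rule, but the genes were chosen with earlier results of these data known. RNA-seq was performed on the free wall of the right atrium (RA) of wild-type C57BL/6 mice at postnatal day 21 (P21), with 3 sham-operated libraries and 3 volume overload (VO) libraries. At P7 the pups, male or female, had undergone either a sham operation or an aortocaval fistula, a puncture that joins the abdominal aorta to the inferior vena cava and so returns more blood to the RA. All mice of both groups had thus been operated on, and the labels give the same wild-type genotype for both. The labels do not say whether a library came from a single animal, so the p-values given here measure only the spread between these libraries, which may be in part technical.

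TGF-beta is secreted in a latent form, held by a propeptide and, in many tissues, tethered to the extracellular matrix by latent TGF-beta binding proteins. Once integrins, thrombospondins or proteases release it, it binds the type II receptor TGFBR2, which recruits and activates the type I receptor TGFBR1, and this in turn phosphorylates SMAD2 and SMAD3. SMAD7 is induced by the pathway and shuts the receptors off, and in the heart the pathway is best known for driving fibroblasts to lay down matrix.

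Expression was read as FPKM, the fragments on a gene divided by its length and by a library size, so levels can be compared between genes. The sizes behind the deposited values were already scaled between libraries and were not the fragment totals. The libraries held 15963082 to 17237903 fragments on genes, and 1 FPKM corresponded to 15.6 (sham 1) to 18.1 (VO 1) fragments per kilobase of gene, although these libraries held 16494342 and 16852482 fragments. The 12627 genes with a mean of at least 1 FPKM over the 6 libraries were tested with limma on log2(FPKM + 0.1). Fold changes are on that scale, which understates the change of weakly expressed genes. Atrial cardiomyocyte markers such as Myl7 were abundant, and their summed FPKM was 14912 to 20806 in sham and 7258 to 14115 in VO. All 7 markers were lower in VO, and 3 of them at an unadjusted p under 0.05, as were 8.08% of all tested genes. Some single markers overlapped between the groups, among them Nppa, at 3224 FPKM in VO 2 and 3051 to 5513 FPKM in sham. Libraries VO 1, VO 3, sham 1 and sham 2 stood apart in the markers of some other cells. Epicardial and mesothelial markers were at 110.9 FPKM in VO 1 and 110.6 FPKM in sham 2, against 33.4 to 71.6 elsewhere. Ventricular cardiomyocyte markers were at 121 to 308 FPKM in sham and 92.7 to 143 FPKM in VO. VO 1 had 957 FPKM of macrophage markers against 271 to 376 elsewhere, and VO 3 had 392 FPKM of adipocyte markers against 3.50 to 7.72 elsewhere. Sham 1 had 122 FPKM of platelet markers against 24.7 to 73.7 elsewhere, and its red cell markers, at 6164 FPKM, were second to VO 1 (7726) and above the 638 to 2162 of the other libraries. In bulk RNA, fewer cells of a type and less RNA per cell cannot be told apart.

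Of the 9 genes, 7 passed the filter, and 1 of these, the receptor gene Tgfbr2, was higher in VO at an unadjusted p under 0.05, while none was lower. Over all 12627 tested genes, 3.89% were higher and 8.08% lower by the same rule. With limma and Benjamini-Hochberg adjustment over all tested genes, 0 of the 7 passed 0.05, a threshold that 0.00792% of all genes passed, and 0 of the 7 passed it with voom, limma's test on the recovered fragments. Tgfbr2 and Ltbp2 were the genes whose VO libraries all lay above the sham libraries, that is 1 of the 7 tested and 2 of all 9. Among all tested genes such a separation was seen in 8.25% upward, 12.9% downward and 21.2% in either direction. The median log2 fold change of the 7 tested genes was 0.11, beside -0.01 for all tested genes. With TPM, which rescales every library to the same total, these medians were 0.25 and 0.13, so the change of scale moved both upward.

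The promoters of Tgfbr2 and Ltbp2 are shown because these were the genes without overlap between the groups. The sequences, from RefSeq on GRCm38.p6, run 5′ to 3′ along the gene's strand and end just before the gene start given in the expression table. Capitals mark CAGAC or its reverse complement GTCTG, the 5-letter element that SMAD3 and SMAD4 are known to bind.
Tgfbr2, chr9:116175364-116175613, minus strand: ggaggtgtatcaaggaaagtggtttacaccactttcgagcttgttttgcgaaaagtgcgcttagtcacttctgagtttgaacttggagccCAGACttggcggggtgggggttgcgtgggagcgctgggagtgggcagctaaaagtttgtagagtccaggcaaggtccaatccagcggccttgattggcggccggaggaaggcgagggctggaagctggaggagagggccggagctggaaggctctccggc
Ltbp2, chr12:84876533-84876741, minus strand: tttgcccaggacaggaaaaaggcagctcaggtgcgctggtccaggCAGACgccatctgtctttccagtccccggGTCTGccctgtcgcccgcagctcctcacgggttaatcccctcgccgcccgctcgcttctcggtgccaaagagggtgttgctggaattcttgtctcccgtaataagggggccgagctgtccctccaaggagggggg
The Tgfbr2 stretch of 250 bases holds 1 match and the Ltbp2 stretch of 209 bases holds 2. RefSeq promoter windows of 300 bases, from 250 before to 50 after each start, matched 7 of the 9 genes with 9 windows in all. CAGAC was found on either strand in 6 of these 9 windows and in 49.6% of the 32851 windows of all genes. The palindromic SMAD-binding element GTCTAGAC, which contains neither CAGAC nor GTCTG, was in 0 of the 9 windows and in 0.213% of all windows, and the AP-1 element TGANTCA was in 0 of the 9 and in 7.81%. These matches are letters in a window and say nothing of binding in the RA. Smad7 and Tgfb3 were not matched.

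The levels of the 9 genes in the sham RA spanned a wide range of FPKM. Smad7 (17.8 ± 1.73 FPKM, SD, n = 3) and Tgfbr2 (17.1 ± 2.76) were at the top, and their sham ranges overlapped. Tgfb3 followed at 14.3 ± 0.525 FPKM and overlapped with Tgfbr2. Ltbp1 (11.4 ± 2.12) and Tgfbr1 (9.92 ± 0.515) also overlapped with each other. Tgfb1, Tgfb2, Inhba and Ltbp2 came below them in that order, from 7.21 ± 0.584 down to 0.456 ± 0.0820 FPKM, and no neighbouring pair among these overlapped in sham. In VO the mean of Tgfbr2 (22.6 ± 3.08) was above that of Smad7 (15.5 ± 1.83), and the mean of Ltbp2 (1.30 ± 0.664) was above that of Inhba (0.929 ± 0.263), although the VO values of this last pair overlapped.

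**Figure D1:**
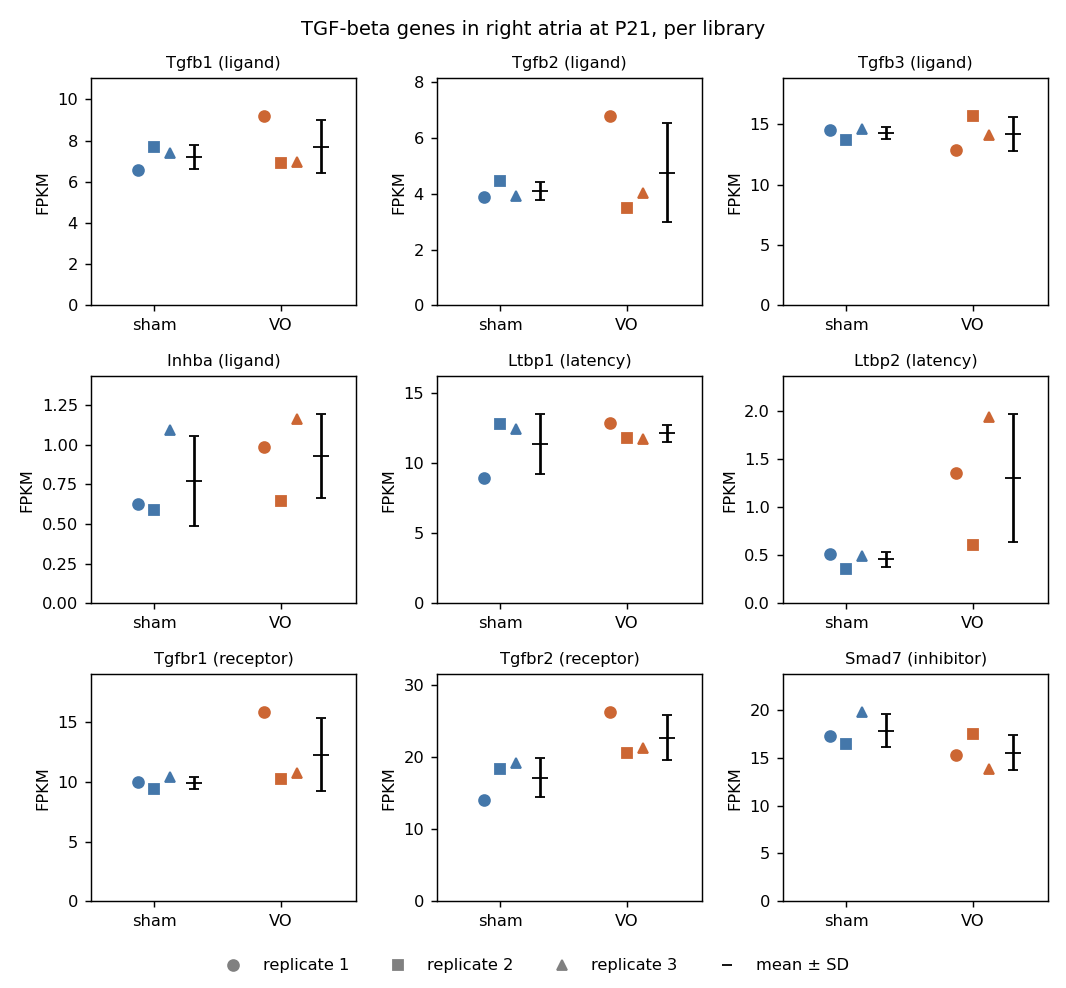
FPKM (vertical axes, each from 0) of the 9 TGF-beta genes in each sham (blue) and VO (orange) library, with replicate numbers as symbols and the mean ± SD (n = 3) beside them. The VO libraries all lie above the sham libraries for Tgfbr2 and Ltbp2, and VO 1 is the highest library for Tgfb1, Tgfb2, Ltbp1, Tgfbr1 and Tgfbr2.

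The ligand genes come first. Tgfb3 (ENSMUSG00000021253, chr12:86056745-86079041, minus strand) was the most abundant of the 3 TGF-beta isoforms in the RA. It was read at 14.5, 13.7 and 14.6 FPKM in sham 1 to 3 and at 12.9, 15.6 and 14.1 FPKM in VO 1 to 3. Both the lowest and the highest of the 6 values were in VO, and the groups overlapped. For Tgfb3 the log2 fold change was -0.01 (SE 0.11, limma adjusted p = 0.968), and its sign differed among the alternatives. On the opposite strand Tgfb3 overlaps Ttll5, a tubulin-modifying gene at 0.892 to 1.11 FPKM. Because the strand setting of the counting is not given in the sources used here, reads of this pair cannot be told apart where they overlap.

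Tgfb1 (ENSMUSG00000002603, chr7:25687002-25705077, plus strand), the isoform most often tied to fibrosis and immune regulation, was read at 6.57, 7.70 and 7.38 FPKM in sham and at 9.18, 6.93 and 6.98 FPKM in VO. VO 1 was the highest of the 6 libraries, and VO 2 and VO 3 lay inside the sham range. The log2 fold change of Tgfb1 was 0.08 (SE 0.14, limma adjusted p = 0.790), and it was -0.05 without VO 1. Tgfb2 (ENSMUSG00000039239, chr1:186622792-186705989, minus strand), the isoform needed for the forming valves and septa of the embryonic heart, was also highest in VO 1, at a lower level. Its sham values were 3.88, 4.46 and 3.90 FPKM and its VO values 6.77, 3.48 and 4.01 FPKM. VO 2 was the lowest library, below all 3 sham values, and VO 3 lay inside the sham range. For Tgfb2 the fit gave a log2 fold change of 0.16 (SE 0.24, limma adjusted p = 0.760), and it was -0.12 without VO 1. Its antisense gene Gm29491 was read at 0 to 0.607 FPKM and cannot be told apart from it without strand.

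Summed over Tgfb1, Tgfb2 and Tgfb3, the ligand messages came to 25.6 ± 0.505 FPKM in sham and 26.7 ± 1.93 FPKM in VO (SD, n = 3). The sums were 25.0, 25.8 and 25.9 FPKM in sham and 28.8, 26.1 and 25.1 FPKM in VO, so the groups overlapped. Tgfb3 made up 55.8% ± 2.67 of the sum in sham and 53.6% ± 8.01 in VO. The share of Tgfb1 was 28.2% ± 1.79 in sham and 28.8% ± 2.76 in VO, and that of Tgfb2 was 16.0% ± 1.15 and 17.6% ± 5.25. VO 1 had the smallest Tgfb3 share of the 6 libraries, 44.6%, and the largest Tgfb2 share, 23.5%. These shares differed between the groups by less than the spread among the VO libraries. In VO 1, markers of neutrophils summed to 65.1 FPKM against 0.337 to 10.4 elsewhere and the macrophage marker Lyz2 was at 485 against 106 to 161 FPKM. Their part in the ligand levels of that library, or that of the epicardial and mesothelial markers, was not tested.

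Inhba (ENSMUSG00000041324, chr13:16011851-16031621, plus strand) encodes the subunit of activin A, a relative of TGF-beta that signals through its own receptors to SMAD2 and SMAD3. Its values were 0.624, 0.590 and 1.10 FPKM in sham and 0.983, 0.643 and 1.16 FPKM in VO, from 62 to 122 fragments per library. The lowest library was sham 2 and the highest VO 3, and sham 3 lay above VO 1 and VO 2. The antisense gene Gm48444 was read at 0 to 0.192 FPKM and cannot be told apart from Inhba without strand where they overlap. Inhba did not pass the filter of 1 FPKM. In a fit of the 19053 genes with a mean of at least 0.1 FPKM its log2 fold change was 0.26 (SE 0.32, limma adjusted p = 0.762).

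In the latent TGF-beta binding protein family, the groups overlapped for Ltbp1 and separated for Ltbp2. Ltbp1 (ENSMUSG00000001870, chr17:75005568-75392512, plus strand) encodes the binding protein that joins the latent TGF-beta complex covalently and carries it into the matrix. It was read at 8.94, 12.8 and 12.4 FPKM in sham and at 12.9, 11.8 and 11.7 FPKM in VO. Sham 1 was low, and the other 5 libraries lay within a narrow band. Its log2 fold change was 0.11 (SE 0.15, limma adjusted p = 0.747), and it was -0.06 without sham 1.

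Ltbp2 (ENSMUSG00000002020, chr12:84783212-84876532, minus strand) belongs to the same family by structure, but it is known as a component of fibrillin microfibrils that does not bind latent TGF-beta. Its values were 0.511, 0.362 and 0.495 FPKM in sham and 1.35, 0.607 and 1.93 FPKM in VO. All 3 VO libraries lay above the 3 sham libraries, with VO 2 closest to them. The VO mean was 2.85 times the sham mean. The antisense gene D030025P21Rik was read at 0 to 0.0727 FPKM and cannot be told apart from Ltbp2 without strand where they overlap. Ltbp2 rested on 51 to 260 fragments per library and did not pass the filter of 1 FPKM. At a mean of at least 0.1 FPKM the log2 fold change was 1.21 (SE 0.41), with an unadjusted limma p of 0.020 and an adjusted p of 0.499. Of the 19053 genes of that fit, 3.73% were higher in VO at an unadjusted p under 0.05. An exact two-sided permutation test of Ltbp2 gave p = 0.1, the smallest value that 3 libraries against 3 allow. Leaving out 1 library gave log2 fold changes of Ltbp2 from 0.88 without VO 3 (limma adjusted p = 0.505) to 1.64 without VO 2 (adjusted p = 0.258), and the unadjusted call was lost without VO 1, VO 3 or sham 2. VO 3, the highest library, also had 32.5 FPKM of Schwann cell markers against 3.94 to 4.63 elsewhere, and Ucp1, the marker of brown fat, at 254 FPKM where the other 5 libraries are listed at 0. Their part in the level of Ltbp2 was not tested.

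The receptor genes were both higher on average in VO, and Tgfbr2 passed the unadjusted threshold. Tgfbr2 (ENSMUSG00000032440, chr9:116084293-116175360, minus strand) encodes the receptor that binds the ligand first. It was read at 14.0, 18.3 and 19.1 FPKM in sham and at 26.2, 20.5 and 21.3 FPKM in VO. Sham 1 was the lowest library and VO 1 the highest, and the lowest VO value lay above the highest sham value. The VO mean was 1.32 times the sham mean, with a log2 fold change of 0.41 (SE 0.16, 95% interval 0.03 to 0.78). The unadjusted limma p was 0.038 and the adjusted p 0.410, and the exact two-sided permutation test gave p = 0.1. Without VO 1 the log2 fold change of Tgfbr2 was 0.30 (limma adjusted p = 0.697), without sham 1 it was 0.26 (adjusted p = 0.688), without VO 3 it was 0.45 (adjusted p = 0.416) and without sham 2 it was 0.46 (adjusted p = 0.544). The direction was the same without each of these libraries, while the unadjusted call was lost without each of them. Summed atrial cardiomyocyte markers were 20806, 15110 and 14912 FPKM in sham and 7258, 14115 and 10302 FPKM in VO. Ranked by these sums, the libraries stood in the reverse order of Tgfbr2, but this was 1 of 14 cell types read. Over all tested genes, sham 1 was the highest library in 29.0% and VO 1 the lowest in 32.8%. How many of those genes stood in that same order was not counted. The part of the atrial cardiomyocyte markers in the Tgfbr2 values, or of the platelet and red cell markers of sham 1, was not tested.

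Tgfbr1 (ENSMUSG00000007613, chr4:47353222-47414931, plus strand), the kinase that TGFBR2 activates, was read at 10.0, 9.37 and 10.4 FPKM in sham and at 15.8, 10.2 and 10.8 FPKM in VO. VO 1 was far above the other libraries, and VO 2 lay inside the sham range. Its log2 fold change was 0.28 (SE 0.17, limma adjusted p = 0.494), and it was 0.08 without VO 1. The level of Tgfbr2 was 1.40, 1.96 and 1.84 times that of Tgfbr1 in sham 1 to 3 and 1.65, 2.0 and 1.97 times in VO 1 to 3, so the ratio between the receptors overlapped between the groups. VO 1, where both receptors were at their highest, was the library with the most macrophage and neutrophil markers. Their part in the receptor levels was not tested.

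Smad7 (ENSMUSG00000025880, chr18:75367529-75395935, plus strand), the inhibitory SMAD, had the reverse order of means. It was read at 17.3, 16.4 and 19.7 FPKM in sham and at 15.3, 17.4 and 13.8 FPKM in VO. The 2 lowest libraries were VO 3 and VO 1, but VO 2 lay above both sham 1 and sham 2. For Smad7 the log2 fold change was -0.20 (SE 0.13, limma adjusted p = 0.501), with a 95% interval from -0.50 to 0.10. It was below 0 under every alternative run, from -0.29 to -0.06.

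**Figure D2:**
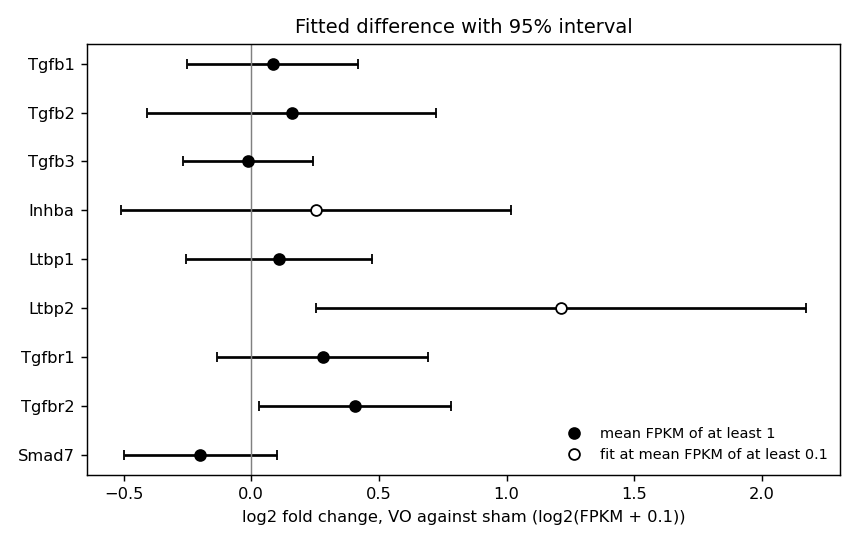
Fitted log2 fold change of each gene, VO against sham, on the log2(FPKM + 0.1) scale, with its 95% interval (limma). The intervals of Tgfbr2 (0.03 to 0.78) and Ltbp2 (0.25 to 2.17, open symbol, fit at a mean of at least 0.1 FPKM) lie above 0 and those of the other 7 genes include 0.

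Across the 9 genes, VO 1 was the highest of the 6 libraries in 5, whereas over all tested genes it was the highest in 25.4% and the lowest in 32.8%. Sham 1 and sham 2 were each the lowest library in 3 of the 9, beside 22.9% and 12.0% of all tested genes. The genes whose values followed those of Tgfbr2 most closely over the 6 libraries, by the root mean square difference of centred log2 values, were Mkl1 (0.0364), Cnot6l (0.0397) and Lrrc8b (0.0407), where the median over all other tested genes was 0.346.

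The remaining genes of the pathway were read in 5 lists, ordered from ligand release to target genes. By the unadjusted rule 12.0% of all tested genes differed in either direction. With limma, 0 genes of any of the 5 lists passed after adjustment over all tested genes.

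In the list of ligand latency and release, 18 of 18 genes were tested, 14 were higher and 4 lower in VO, and the median log2 fold change was 0.25. At an unadjusted p under 0.05, 3 rose and 1 fell, or 22.2% of the list. Fbn1, which encodes fibrillin-1, the microfibril protein to which latent complexes are anchored, was at 14.0, 21.6 and 17.3 FPKM in sham and at 36.9, 22.7 and 27.7 FPKM in VO, without overlap and with a log2 fold change of 0.72 (SE 0.22, limma adjusted p = 0.404). Its partner in microfibrils, Mfap5, was at 17.4 ± 0.373 FPKM in sham and 22.2 ± 1.14 in VO, a log2 fold change of 0.35. Thbs2, a matricellular thrombospondin, was at 8.90 ± 0.913 and 13.4 ± 3.74 FPKM, a log2 fold change of 0.56. None of these 3 genes overlapped between the groups. Itgb6, whose integrin activates latent TGF-beta on epithelial cells, fell from 2.04 ± 0.217 to 1.19 ± 0.106 FPKM, a log2 fold change of -0.73 (limma adjusted p = 0.371), also without overlap. VO 1 was the highest library for 12 of the 18 genes, and without it the median of the list was 0.07, with 3 genes higher and 1 lower at the unadjusted threshold. Without sham 1, which was the lowest library for 8 of the 18, 1 was higher and 1 lower.

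Of 12 other ligands and secreted antagonists, 8 were tested, 3 were higher and 5 lower in VO, and the median log2 fold change was -0.05. Fstl1, a secreted follistatin-like glycoprotein of mesenchymal cells, was at 88.8 ± 2.58 FPKM in sham and 131 ± 34.7 in VO, a log2 fold change of 0.53 (SE 0.19, limma adjusted p = 0.406). Aspn, which encodes asporin, a matrix proteoglycan that binds TGF-beta, was at 26.6 ± 1.71 and 46.2 ± 19.3 FPKM, with a log2 fold change of 0.72 (limma adjusted p = 0.410). In both genes VO 1 was the highest library by a wide margin, at 171 FPKM for Fstl1 and 67.6 FPKM for Aspn, and the groups did not overlap. Without VO 1 the log2 fold changes were 0.33 and 0.40. These 2 genes, or 25% of those tested, passed the unadjusted threshold, beside 12.0% of all tested genes in either direction. The count of 2 genes was 1 without VO 3 and 0 without any 1 of the sham libraries.

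Of 12 other receptors and coreceptors, 10 were tested, 7 were higher and 3 lower, and the median was 0.05. Acvrl1, the endothelial type I receptor ALK1, was at 6.53 ± 0.505 FPKM in sham and 8.0 ± 0.685 in VO, a log2 fold change of 0.29 (SE 0.11, limma adjusted p = 0.410). Dab2, an endocytic adaptor of the TGF-beta receptors, was at 9.35 ± 0.983 and 13.8 ± 3.42 FPKM, a log2 fold change of 0.53 (limma adjusted p = 0.406). Dab2 is also expressed by macrophages, and its highest value, 17.7 FPKM, was in VO 1. Its log2 fold change was 0.34 without that library. Acvrl1 and Dab2 passed the unadjusted threshold, or 20% of those tested, beside 12.0% of all tested genes in either direction. The count of 2 in this list was 1 without VO 1 or sham 3 and 0 without sham 1, and without sham 2 it was made up of 1 higher and 1 lower gene. The summed endothelial markers were 244 to 262 FPKM in sham and 256 to 268 in VO, so these sums overlapped. Without Pecam1, the largest of them, the sums were 184 to 195 FPKM in sham and 198 to 201 in VO and did not overlap. Of the 8 endothelial markers 5 were higher and 3 lower, with 1 in each direction at the unadjusted threshold. The part of these markers in the Acvrl1 values was not tested.

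Of 23 SMADs and their regulators, 22 were tested, 12 were higher and 10 lower, and the median was 0.05. Smad3, the receptor-activated SMAD, was the gene that passed the unadjusted threshold, 4.55% of the list. It was at 7.94, 8.31 and 8.21 FPKM in sham and at 9.60, 10.2 and 8.96 FPKM in VO, without overlap. Its log2 fold change was 0.23 (SE 0.10, limma adjusted p = 0.414), and its unadjusted p lay just under the threshold. Without VO 1 the log2 fold change of Smad3 was 0.22, but the count of the list was 0 without VO 1, VO 2 or any 1 of the sham libraries.

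**Figure D3:**
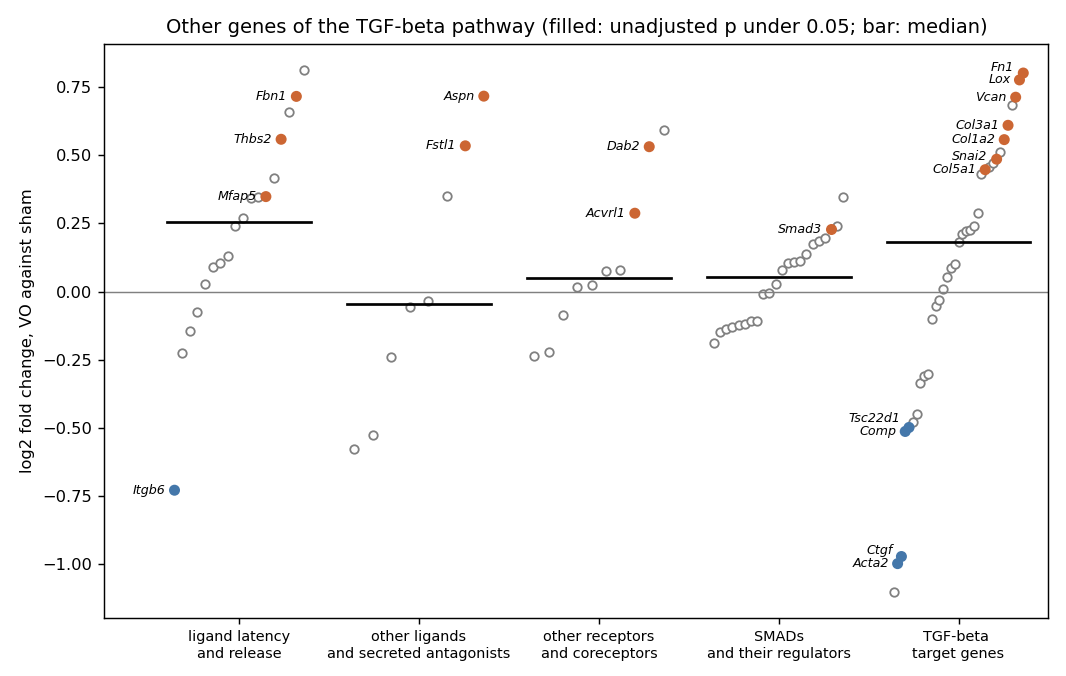
Log2 fold change, VO against sham (vertical axis), of each tested gene in 5 lists of the TGF-beta pathway, with genes at an unadjusted limma p under 0.05 filled (orange higher, blue lower) and named, and the list's median as a bar. Matrix genes such as Fn1, Lox and Vcan stand at the top of the target list and the contractile gene Acta2 and Ctgf near its bottom.

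The genes known to respond to TGF-beta split into both directions. Of 40 target genes, 35 were tested, 22 were higher and 13 lower in VO, and the median log2 fold change was 0.18. At an unadjusted p under 0.05, 7 rose and 4 fell, or 31.4% of those tested, beside 12.0% of all tested genes. The list joins matrix, contractile and transcription factor genes that other signals also control, and it was written with earlier results of these data known.

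The 7 target genes that rose were matrix genes and a transcription factor. Vcan, the proteoglycan versican, was at 1.92, 2.94 and 2.24 FPKM in sham and at 4.08, 3.26 and 4.41 FPKM in VO, a log2 fold change of 0.71 (SE 0.20, limma adjusted p = 0.383). Snai2, a transcription factor of mesenchymal cells, was at 2.48, 2.78 and 3.59 FPKM in sham and at 4.69, 3.76 and 3.97 FPKM in VO, a log2 fold change of 0.49. Neither gene overlapped between the groups, and without VO 1 their log2 fold changes were 0.68 and 0.39. Lox, which encodes the enzyme that crosslinks collagen, was at 5.80, 6.65 and 5.15 FPKM in sham and at 15.4, 6.95 and 9.48 FPKM in VO. Fn1, fibronectin, was at 14.8, 22.3 and 24.7 FPKM in sham and at 52.4, 28.7 and 28.8 FPKM in VO. Both were without overlap and highest in VO 1, with log2 fold changes of 0.78 and 0.80, or 0.47 and 0.51 without that library. The fibrillar collagen genes Col3a1, Col5a1 and Col1a2, which fall outside the rule for naming and were picked after their values were seen, made up the rest, with log2 fold changes of 0.61, 0.45 and 0.56. In each of them VO 2 lay inside the sham range.

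The 4 that fell included Acta2 and Ctgf. Acta2, smooth muscle alpha-actin and the usual marker of myofibroblasts, was at 154, 136 and 201 FPKM in sham and at 54.1, 98.7 and 98.9 FPKM in VO, a log2 fold change of -1.0 (SE 0.27, limma adjusted p = 0.373). Ctgf, a matricellular protein that TGF-beta and YAP both induce, was at 214, 204 and 278 FPKM in sham and at 77.2, 160 and 129 FPKM in VO, a log2 fold change of -0.97 (limma adjusted p = 0.391). VO 1 was the lowest library in both genes, and the groups did not overlap. Without VO 1 the log2 fold changes of Acta2 and Ctgf were -0.71 and -0.67. Tagln, another target on the list and named after its values were seen, was at 0.340 to 0.711 FPKM and did not pass the filter. Which cells held the Acta2 RNA was not tested. Tsc22d1, a TGF-beta-induced leucine zipper protein, fell by 0.50 on the log2 scale, and Comp, cartilage oligomeric matrix protein, fell by 0.51, the latter with VO 2 inside the sham range. Cnn1, the contractile protein calponin, named after its values were seen, was lower in all VO libraries than in any sham library, at 2.33, 2.16 and 1.86 FPKM in sham and at 0.322, 1.5 and 1.51 FPKM in VO, but its log2 fold change of -1.10 did not pass the unadjusted threshold (limma adjusted p = 0.424) and was -0.46 without VO 1.

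Postn, which encodes the matricellular protein periostin and was also named after its values were seen, was at 35.0, 34.0 and 39.4 FPKM in sham and at 106, 41.7 and 43.9 FPKM in VO. Its VO libraries all lay above the sham libraries, but most of the difference stood in VO 1, and it did not pass the unadjusted threshold (limma adjusted p = 0.438).

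The count of target genes depended on VO 1, which was the highest of the 6 libraries in 17 of the 35 and the lowest in 7. Without VO 1, 2 target genes were higher and 5 lower at the unadjusted threshold, and the median log2 fold change was 0.04. Without VO 3 the counts were 5 higher and 3 lower, and without VO 2 they were 12 and 5. Without sham 1 or without sham 3, 3 were higher and 3 lower. With TPM, 12 were higher and 3 lower, and over all tested genes TPM gave 1080 higher and 489 lower where FPKM gave 491 and 1020. The direction of each target gene named by the rule was unchanged without VO 1.

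**Figure D4:**
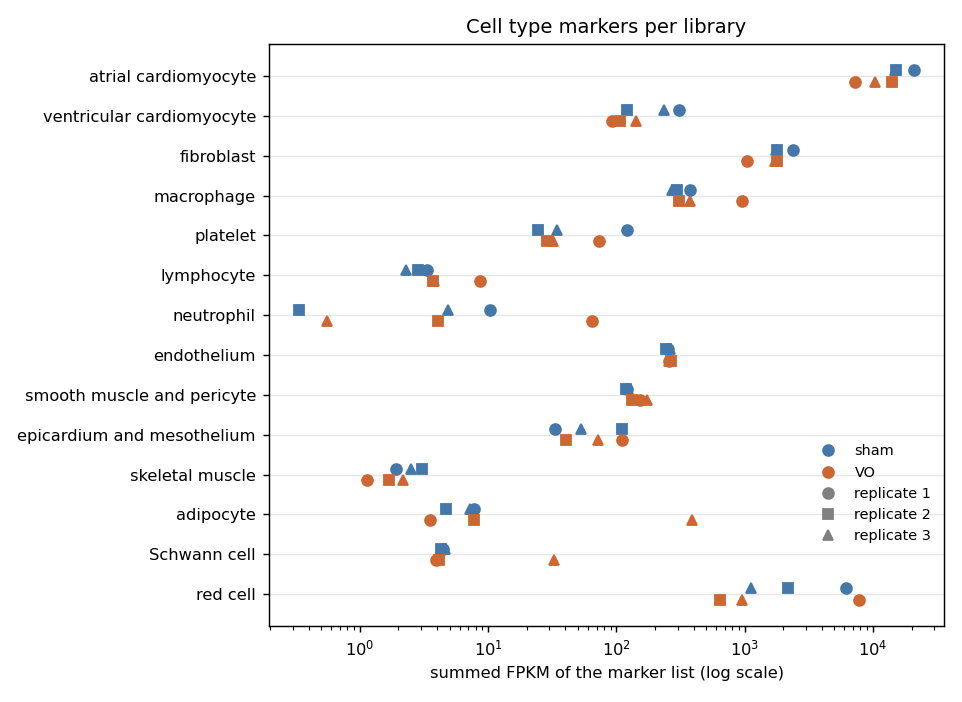
Summed FPKM (horizontal log axis) of marker genes of 14 cell types in each sham (blue) and VO (orange) library, with replicate numbers as symbols. VO 1 stands out in macrophage (957) and neutrophil (65.1) markers and VO 3 in adipocyte (392) and Schwann cell (32.5) markers, while the atrial cardiomyocyte sum is lower in all 3 VO libraries than in any sham library.

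Marker genes of fibroblasts, of smooth muscle and pericytes, of macrophages and of atrial cardiomyocytes moved as follows. Of 10 fibroblast markers 7 were higher and 3 lower in VO, and 0 passed the unadjusted threshold in limma. Their summed level was 1758 to 2365 FPKM in sham and 1050 to 1785 in VO, but without Gsn, the largest of them, which was at 321 FPKM in VO 1 and at 1042 to 1604 elsewhere, the sums were 590.1 to 761 and 637 to 728 FPKM and overlapped. Pdgfra, a defining fibroblast gene, was at 17.5, 13.9 and 15.6 FPKM in sham and at 16.1, 14.9 and 15.4 FPKM in VO, so its groups overlapped. Of 7 smooth muscle and pericyte markers 5 were higher and 2 lower, with sums of 119 to 124 FPKM in sham and 133 to 173 in VO. At the unadjusted threshold 1 of the 7 was higher, as were 3.89% of all tested genes. Without Rgs5, a pericyte gene and the largest of these markers, the sums overlapped, at 48.8 to 54.3 FPKM in sham and 53.7 to 63.4 in VO. Myh11, the smooth muscle myosin, was at 4.09, 4.47 and 4.74 FPKM in sham and at 2.80, 4.87 and 6.52 FPKM in VO, so its groups overlapped. Macrophage markers were higher in VO for all 10 genes, with Cd68 passing the unadjusted threshold, which 3.89% of all tested genes passed upward. Their sums were 271 to 374 FPKM in sham and 957, 310 and 376 FPKM in VO 1 to 3. VO 2 thus lay inside the sham range and VO 3 just above it, and most of the difference stood in VO 1. Atrial cardiomyocyte markers were lower in VO for all 7 genes, and their sum was smallest in VO 1, at 7258 FPKM. VO 1 was also the lowest library for Acta2 and Ctgf. The part that any of these cell types had in the differences of Tgfbr2, Ltbp2 or the target genes was not tested.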

How the data were processed

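RNA of RA myocardium was sequenced by the authors as 150-base read pairs from 3 sham and 3 VO libraries. Per the labels, the tools included HISAT2 2.0.5 and featureCounts 1.5.0-p3 on GRCm38, and the deposited values are FPKM per gene. FPKM times gene length was a whole multiple of 1 step per library in 100% of values (tolerance 0.01 fragment), which gave back the fragments. The table held 54093 complete genes and 1 incomplete line, which was left out. Its coordinates were those of GENCODE for 98.4% of shared genes.

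FPKM were scaled by the median of ratios (factor 1 in every library), filtered to a mean of at least 1 and fitted as log2(FPKM + 0.1) with limma 3.58.1 in R 4.3.3 (lmFit, eBayes with trend), two-sided, without covariates, with Benjamini-Hochberg adjustment over the 12627 tested genes. The authors used DESeq2 1.16.1 on counts, and voom on recovered fragments stood in for it here. The paper's test called far more genes at an adjusted p under 0.05 than the 1 of 12627 that limma called here. The fit was tested on simulated data. The 9 genes, the lists and the tests were chosen with earlier results of these data known. Of each list, at most the 4 genes with the smallest unadjusted p under 0.05 in each direction were named, and the 3 genes nearest to Tgfbr2. Alternatives were another pseudocount (1 or 0.01), filter (0.1, 5 or none), scaling (none, TPM, quantile) or variance model, a replicate block, voom and each library left out. The fit at 0.1 FPKM with each library left out was added after the data were seen.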

Additional observations from a re-analysis of the deposited data

How the results depend on the processing

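Tgfbr2 was higher in VO under all 19 alternatives (log2 fold change 0.25 to 0.54, limma adjusted p 0.307 to 0.697) and at an unadjusted p under 0.05 in 12 of them. Ltbp2 was higher in all 8 fits that held it (0.88 to 1.64, adjusted p 0.258 to 0.784), in 5 of them at that threshold. The count of the 9 genes higher at an unadjusted p under 0.05, 1 in the report, was 2 at a mean of at least 0.1 FPKM and without a filter, where Ltbp2 joined Tgfbr2, 0 with eBayes without trend and with array weights, and 0 to 1 with each library left out. The count without overlap, 2 in the report, was 2 to 4 with each library left out, where fewer libraries must separate.

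With each library left out, the counts at an unadjusted p under 0.05 were 2 to 7 for ligand latency and release, 0 to 2 for other ligands and antagonists, 0 to 2 for other receptors, 0 to 1 for SMADs and 6 to 17 for target genes, where the report gives 4, 2, 2, 1 and 11. Other receptors gave 1 without the variance trend. SMADs gave 0 at a pseudocount of 0.01, at a mean of at least 0.1 FPKM and without the trend. The cause of these changes was not tested.

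The sign of 4 small log2 fold changes turned. Tgfb1 was -0.0299 with array weights and -0.0496 to 0.150 with each library left out, Tgfb2 was -0.0070 and -0.12 to 0.35, and Ltbp1 was -0.0226 and -0.0583 to 0.195. Tgfb3 was 0.13 with TPM, 0.0420 with quantile normalization, 0.0303 with array weights, 0.0162 with voom and -0.0855 to 0.0562 with each library left out.

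The replicate numbers were not taken as a pairing, since the labels tie them to no shared animal and the deviations of same-numbered libraries from their group means correlated at -0.11, 0.01 and -0.03 across genes. With the replicate block, the counts were 0 of the 9 genes, 0 other receptors, 0 SMADs and 6 target genes.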
